A study of Sus scrofa with 3 samples.

Results

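The genes described here are 9 steroid hormone receptors and steroid-converting enzymes, chosen by symbol: the nuclear receptors ESR1 and NR3C1, the steroid-associated membrane protein PGRMC1, the steroid reductases SRD5A1, SRD5A2 and AKR1D1, and the hydroxysteroid dehydrogenases HSD17B2, HSD17B6 and HSD11B1. Of these 9, 8 had a row among the 22945 mRNA features of the tables, all 8 with a deposited FPKM of at least 1 in every library. FPKM stands for fragments per kilobase of exon, scaled to the fragments mapped. The deposited values do not follow that scale, as described below, and FPKM here means the deposited value. SRD5A2, a 5-alpha reductase, had no row under that symbol and was not analysed here. The values come from the livers of male Chinese Wuzhishan miniature pigs that all ate a high-fat, high-cholesterol (HFC) diet for 12 weeks. The labels give an age of 6–7 months, which in the methods is the age at which the pigs were obtained, so the livers came from older animals. IM pigs were intact and sham-operated, CM pigs were castrated, and CMT pigs were castrated and given testosterone propionate at 10 mg/kg each week. Each group was sequenced as 1 library of pooled RNA, from 3 pigs by the sample labels, while the methods give 6 pigs per group. No group ate a standard diet.

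Steroid hormones act by binding nuclear receptors, which then control transcription, and the amount of active hormone inside a cell depends on enzymes that activate or inactivate it locally. The liver is the main site of steroid clearance. There, 5-alpha and 5-beta reductases remove the double bond of the first ring of androgens and glucocorticoids, and hydroxysteroid dehydrogenases interconvert hydroxyl and keto groups and so switch a hormone between its strong and weak forms. HSD17B2 oxidises testosterone and estradiol to their weaker keto forms, whereas HSD11B1 mainly reduces cortisone to cortisol, the ligand of NR3C1.

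With 1 library per group there was no replicate spread and no p-value was computed. A gene is called higher or lower here when its ratio of FPKM values was at least 1.5-fold. Intervals are 95% exact binomial (Clopper-Pearson) intervals on the number of reads behind each FPKM value. They cover counting error only, and not differences between pigs. The reads recovered from the steps of the FPKM values summed to 32197628 (IM), 36126730 (CM) and 25419901 (CMT). All 8 hepatocyte markers examined, among them ALB and APOA1, were abundant in every library, and the lowest of their values was an FPKM of 829.8 for HNF4A in CM. In bulk tissue, fewer cells of a type and less RNA per cell cannot be told apart.

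One enzyme stood far from the other members. HSD17B2 was at a middling level in IM liver, among the more abundant transcripts in CM liver and at a low level in CMT liver, below that of IM. The remaining members differed by far less between libraries, in several patterns: SRD5A1, AKR1D1, ESR1 and NR3C1 had their highest level in CM, and PGRMC1, HSD17B6 and HSD11B1 had their lowest level there.

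**Figure D1:**
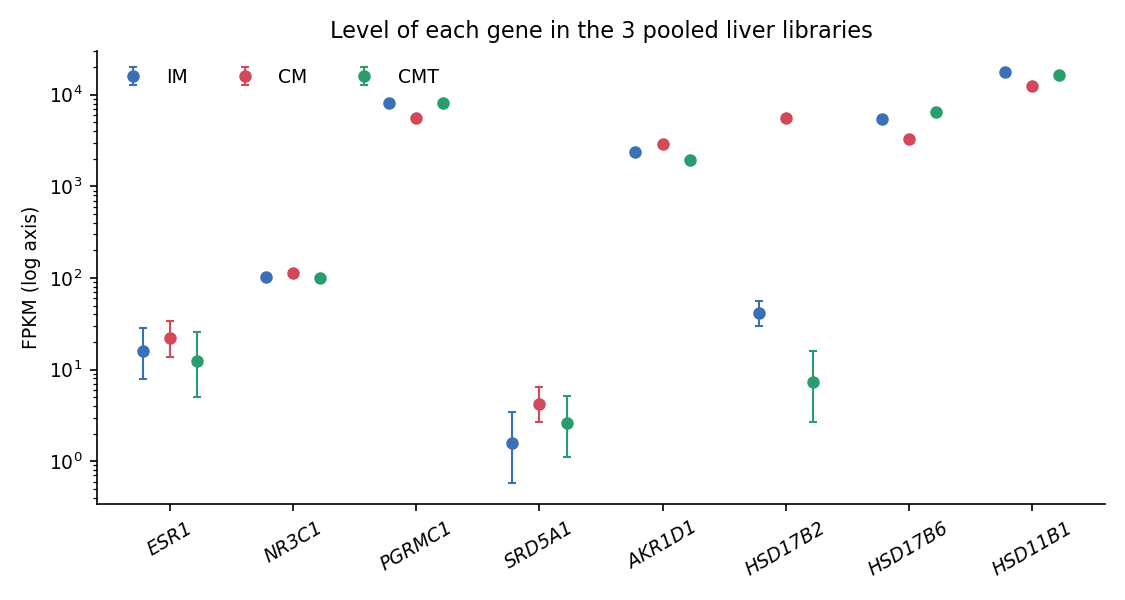
FPKM of each of the 8 listed genes in the IM, CM and CMT libraries, 1 pooled library per group, on a log axis. Points are the deposited values and bars are 95% exact Poisson intervals on the recovered reads, absent for HSD17B6, and smaller than the points for genes with many reads. HSD17B2 lies at 5614 in CM and at 41.5 and 7.30 in IM and CMT, while no other gene moves by more than 2.69-fold.

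In the comparison of CM with IM, 2 of the 8 genes, HSD17B2 and SRD5A1, were at least 1.5-fold higher and 1, HSD17B6, was at least 1.5-fold lower. Of the 15613 mRNA features that reached the minimum FPKM of 1 in every library, 11.1% were higher and 12.1% lower by the same rule. In the comparison of CMT with CM, 1 gene was higher, HSD17B6, against 12.1% of all features, and 3 were lower, ESR1, SRD5A1 and HSD17B2, against 13.5%. In the comparison of CMT with IM, SRD5A1 was higher, against 6.67%, and HSD17B2 was lower, against 10.1%. The counts are too small to set apart from these shares. The comparisons share libraries, since CM enters both the first and the second, so a high or low value in CM alone gives opposite ratios in both.

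**Figure D2:**
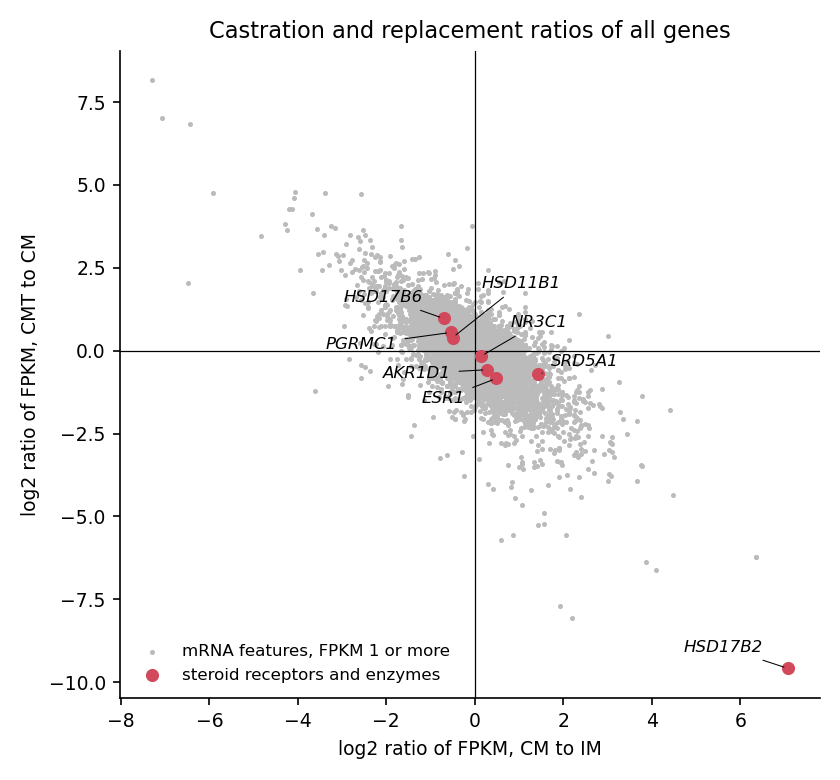
Each grey point is 1 of 15613 mRNA features, placed by its log2 ratio of CM to IM (x axis) and of CMT to CM (y axis). Both axes use the CM library, which by itself gives the cloud its downward slope. HSD17B2 lies alone at 7.08 and -9.59, and the 7 other genes (red) lie within the cloud.

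Among the receptors, ESR1, the estrogen receptor alpha, had an FPKM of 15.8 (IM), 22.1 (CM) and 12.3 (CMT). These values rested on 11, 21 and 7 recovered reads. The ratio of CM to IM was 1.40-fold (95% exact interval 0.646 to 3.22), and CM was 1.79-fold above CMT (0.733 to 4.98). Both intervals include 1. The length recovered for ESR1 was 278 bases, so its true reads may be a multiple of these and the intervals too wide. ESR1 stood in the lower part of the range in every library, with 64.7% of the expressed mRNA features at or above it in IM, 58.8% in CM and 68.4% in CMT.

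NR3C1, the glucocorticoid receptor, was expressed at an FPKM of 102 (IM), 113 (CM) and 100.2 (CMT), on 1746, 2622 and 1392 reads. CM was 1.10-fold above IM (1.04 to 1.17), and CMT stood at 0.890 times CM (0.833 to 0.95). CMT and IM differed by less than counting error, at a ratio of 0.981 (0.914 to 1.05). On the deposited scale, the receptor that binds cortisol was the most even of the 8 genes across libraries. This depended on the scaling. With each library scaled by its total of recovered reads, the log2 ratios of NR3C1 were 0.42 (CM to IM) and -0.41 (CMT to CM). Those of HSD11B1 were then smaller, at -0.22 and 0.16.

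PGRMC1, a heme-binding membrane protein that stabilises cytochrome P450 enzymes and was first described through progesterone binding, was the most abundant of the 3 receptor-class members. Its FPKM was 8190 (IM), 5614 (CM) and 8206 (CMT). CM was 1.46-fold below IM (1.44 to 1.48) and CMT was 1.46-fold above CM (1.44 to 1.48), both just under the 1.5-fold threshold. The IM and CMT values had a ratio of 1.002 (0.987 to 1.02). Of all features, 26.0% had a ratio of CM to IM as far from 1 in either direction. The log2 ratios of PGRMC1, -0.54 (CM to IM) and 0.55 (CMT to CM) as deposited, depended on the scaling. With each library scaled by its total of recovered reads they were -0.26 and 0.31, farther from the threshold.

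The wider list of steroid receptors and their relatives held 14 genes, 12 of them listed and 7 above the FPKM minimum, with the 3 members included. In CM none of the 7 was higher than in IM and 1 was lower, and the median log2 ratio was -0.53, against -0.020 over all mRNA features. Counts of 0 and 1 among 7 are near the shares of 11.1% and 12.1% over all features. The lower gene was PGRMC2, the paralog of PGRMC1, with an FPKM of 246 (IM), 148 (CM) and 420 (CMT). ESRRA, an orphan receptor that controls mitochondrial genes, was at 506 (IM), 340 (CM) and 621 (CMT), so CM was the lowest library for both PGRMC paralogs and for ESRRA. NR3C2, the mineralocorticoid receptor, was at 14.3, 9.94 and 10.8. ESR2, PGR, ESRRB and ESRRG were listed at 0 in all 3 libraries, and GPER1 stayed under an FPKM of 1.

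Among 11 listed receptor chaperones and coregulators, all above the minimum, 1 was lower in CM than in IM and none was higher, again near those shares, with a median log2 ratio of 0.011. That gene was FKBP5, which holds the glucocorticoid receptor in a state of low hormone affinity and is itself induced by it. Its FPKM was 427 (IM), 106 (CM) and 370.3 (CMT). FKBP4, the related chaperone that favours hormone binding, was within 1.5-fold in every comparison, at 799.9, 765 and 1058. HSP90AA1, the heat shock protein that holds unliganded receptors, was at 2134, 2602 and 3386 and past 1.5-fold only between CMT and IM.

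SRD5A1, which converts testosterone to the stronger dihydrotestosterone and also starts the clearance of other steroids, was the least abundant member. Its FPKM was 1.57 (IM), 4.23 (CM) and 2.58 (CMT), on 6, 22 and 8 reads. CM was 2.69-fold above IM, with an interval of 1.06 to 8.11 that stops just above 1. CMT was 1.64-fold below CM (0.703 to 4.26) and 1.64-fold above IM (0.499 to 5.74), and both of these intervals include 1. SRD5A3, a relative that acts in dolichol synthesis, was listed at 0 in all 3 libraries.

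AKR1D1, the 5-beta reductase of steroid clearance and bile acid synthesis, was far more abundant per length than SRD5A1 in every library. It reached an FPKM of 2375 (IM), 2875 (CM) and 1928 (CMT), on 6022, 9931 and 3973 reads. CM was 1.21-fold above IM (1.17 to 1.25). CMT was 1.49-fold below CM (1.44 to 1.55) and 1.23-fold below IM (1.18 to 1.28). The step from CM to CMT lay just under the threshold and passed it under each of the 4 other library scalings tried.

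HSD17B2 had an FPKM of 41.5 (IM), 5614 (CM) and 7.30 (CMT). The values rested on 42, 7738 and 6 recovered reads, which may be a fraction of the true reads since the recovered length was 403 bases. By this count 3 reads of this gene correspond to an FPKM of 2.97 (IM), 2.18 (CM) and 3.65 (CMT). CM was 135-fold above IM (99.9 to 188). It was 769-fold above CMT (353 to 2097). IM in turn was 5.69-fold above CMT (2.41 to 16.4). The 3 libraries were thus separate beyond counting error, with CM highest and CMT lowest.

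Of 15613 mRNA features, HSD17B2 ranked 1 from the top in the ratio of CM to IM and 1 from the bottom in the ratio of CMT to CM. It ranked 43 from the bottom in the ratio of CMT to IM. In a rank of the smaller of the 2 rises in CM, over IM and over CMT, HSD17B2 stood at a log2 value of 7.08 and the next feature at 6.22. Among expressed mRNA features its level ranked 8471 (IM), 195 (CM) and 13252 (CMT). In CM it was therefore level with PGRMC1, which ranked 196 there.

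**Figure D3:**
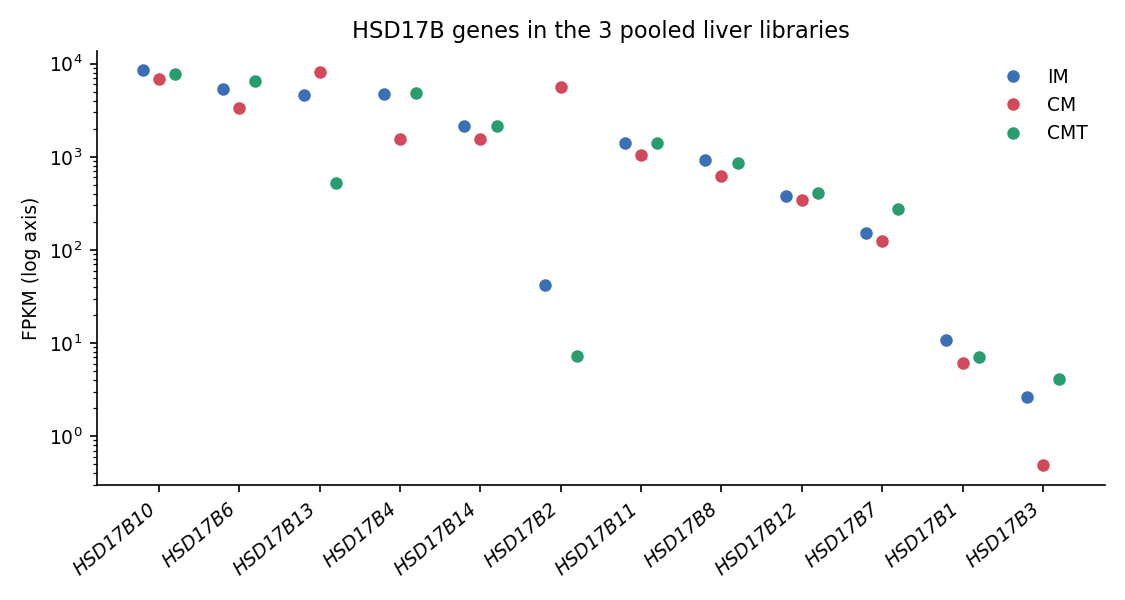
FPKM of the 12 listed HSD17B genes in the IM, CM and CMT libraries on a log axis, 1 value per library with no error bar. HSD17B2 moves from rank 10 of 12 in IM to rank 3 in CM and back to rank 10 in CMT, and HSD17B13 is lowest in CMT.

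Against its own family, HSD17B2 supplied 0.147% (IM), 19.2% (CM) and 0.0296% (CMT) of the summed FPKM of the 12 HSD17B genes. The sum over the family was 28155 (IM), 29195 (CM) and 24641 (CMT). Without HSD17B2 it was 28114, 23581 and 24634. The log2 ratio of CM to IM of the remaining sum was -0.25, but it depended on the scaling: it was -0.23 and -0.21 with libraries scaled to their median ratio or their upper quartile, and 0.027 and 0.0032 when scaled by read totals or to equal FPKM sums. The enzymes of this family share a name more than a substrate, and several act on fatty acids or retinoids. HSD17B4, the peroxisomal multifunctional enzyme of beta-oxidation, was at 4717 (IM), 1572 (CM) and 4866 (CMT), and was thus 3.001-fold lower in CM. HSD17B13, a lipid droplet protein of hepatocytes, was at 4557 (IM), 8138 (CM) and 525 (CMT). CM was 1.79-fold above IM (1.76 to 1.81) and 15.5-fold above CMT. Like HSD17B2, HSD17B13 was highest in CM and lower in CMT than in IM. HSD17B3, which makes testosterone in the testis, was at 2.65, 0.485 and 4.07 on 8, 2 and 10 reads.

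HSD17B6, which oxidises androstanediols and also acts on retinols, ran the other way from HSD17B2. Its FPKM was 5377 (IM), 3305 (CM) and 6475 (CMT). CM was 1.63-fold below IM, and CMT was 1.96-fold above CM and 1.20-fold above IM. No whole reads were recovered for this gene, so its ratios have no interval. The related RDH16, which also takes androstanediols and retinols, was at 9088, 6780 and 8933 and within 1.5-fold throughout.

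HSD11B1, which regenerates cortisol in the liver, was the most abundant member in every library. Its FPKM was 17806 (IM), 12593 (CM) and 16565 (CMT), which ranked 70, 80 and 73 among expressed mRNA features. CM was 1.41-fold below IM (1.39 to 1.44) and CMT was 1.32-fold above CM (1.29 to 1.34). CMT was slightly below IM, at a ratio of 0.930 (0.914 to 0.947). HSD11B2, which inactivates cortisol, was at 1.73 (IM), 2.11 (CM) and 0 (CMT), on 6, 10 and 0 reads. HSD11B1L, a relative of HSD11B1, was at 9.66, 15.9 and 6.79.

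**Figure D4:**
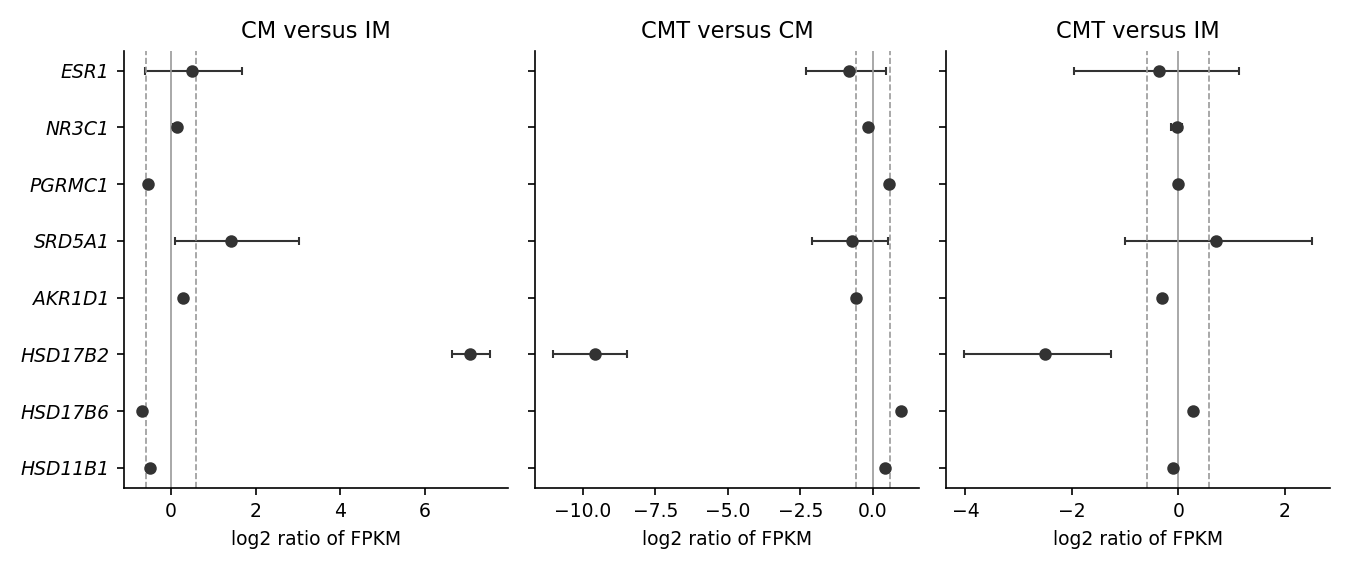
Log2 ratio of FPKM of the 8 genes in the 3 comparisons, each panel with its own x scale. Bars are 95% exact intervals for counting error, absent for HSD17B6, and dashed lines mark 1.5-fold. The intervals of ESR1 cross 0 in all 3 panels and those of HSD17B2 in none.

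Over the 8 genes, the order of levels was similar in IM and CMT. In IM it ran HSD11B1, PGRMC1, HSD17B6, AKR1D1, NR3C1, HSD17B2, ESR1 and SRD5A1. In CMT the order was the same except that ESR1 stood above HSD17B2. There the counting intervals of ESR1 (4.96 to 25.4) and HSD17B2 (2.68 to 15.9) overlapped, as did those of HSD17B2 and SRD5A1 (1.11 to 5.09). In CM, HSD17B2 moved up beside PGRMC1, with overlapping intervals of 5490 to 5741 and 5556 to 5672.

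The wider list of steroid reductases and hydroxysteroid dehydrogenases had 30 genes, 26 listed and 22 above the minimum, including the members. Compared with IM, 7 were higher in CM and 6 lower, with a median log2 ratio of -0.28, beside shares of 11.1% and 12.1% over all features. In CMT 4 were higher and 7 lower than in CM, with a median of 0.32, against 0.013 over all features and shares of 12.1% and 13.5%. AKR1C1, an aldo-keto reductase, was at an FPKM of 104 (IM), 342 (CM) and 80.5 (CMT). Its assignment is uncertain, since AKR1C genes are near-identical copies that can share reads. HSD3B1, which oxidises 3-beta-hydroxysteroids, was at 239, 382 and 85.7. Both had their highest level in CM and their lowest in CMT, the order seen for HSD17B2 and HSD17B13. CBR1, a carbonyl reductase, was at 6.87, 2.02 and 3.38 on 5, 2 and 2 reads, with an interval of the 3.41-fold lower level in CM that runs from 0.558 to 35.8. RDH5 stayed under an FPKM of 1.

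Of 11 genes for cofactor supply, 7 were above the minimum, and 1 of them was lower in CM than in IM and none higher, near the shares over all features. IDH1, an enzyme of general metabolism, was listed at 0 in all 3 libraries, so a listed 0 need not mean that a transcript was absent. The cofactor gene that was lower in CM was SLC37A4, which carries glucose 6-phosphate into the endoplasmic reticulum, where HSD11B1 draws its NADPH from it. SLC37A4 was at an FPKM of 2769 (IM), 1277 (CM) and 1707 (CMT). Among 7 steroid carriers and conjugation genes above the minimum, 1 was higher in CM than in IM, near the share of 11.1% over all features. This was STS, the sulfatase that frees sulfated steroids, at 11.1 (IM), 20.3 (CM) and 6.21 (CMT). SULT2A1, which sulfates steroids, was at 2611, 3448 and 1507, and SERPINA6, the cortisol carrier of plasma, at 2910, 2511 and 2091. ABCC2, an exporter of conjugates, was at 548, 487 and 734. SLC10A6 and SHBG stayed under an FPKM of 1. Of 12 genes for hormone synthesis in gonad and adrenal, 8 were listed and 3 reached the minimum, of which HSD3B1 was higher and CYP21A2 lower in CM. So few genes cannot be set apart from the shares of 11.1% higher and 12.1% lower over all features. CYP21A2 rested on 10 (IM) and 7 (CM) reads. The interval of its 1.95-fold lower level in CM, 0.669 to 6.03, includes 1. CYP11A1 and CYP17A1 were listed at 0 in all 3 libraries. CYP19A1 was listed at 0 in IM and CMT and at 0.767 in CM, on 4 reads.

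Genes known to respond to glucocorticoids through NR3C1 stood lower in CM as a group. Of 18 genes in the list, 16 were listed and above the minimum, and 13 of these were lower by 1.5-fold or more in CM than in IM while 1 was higher. Over all mRNA features the shares were 12.1% and 11.1%. The median of the 16 for CM over IM was -1.09 on the log2 scale, against -0.020 over all mRNA features, and 15 of the 16 ratios were below 0. In CMT, 8 were higher and 1 lower than in CM, beside shares of 12.1% and 13.5%, with a median of 0.63. Against IM, 1 was higher and 7 were lower in CMT, beside shares of 6.67% and 10.1%. The median for CMT over IM was -0.52, against -0.0072 over all mRNA features. The list was written with earlier results of these data known and had no test.

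**Figure D5:**
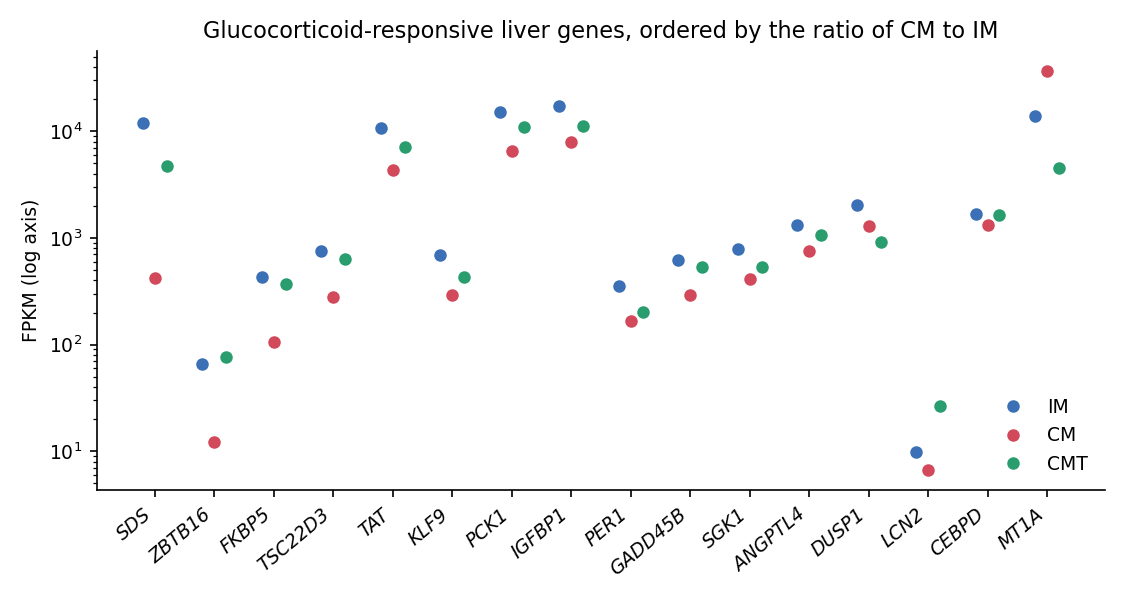
FPKM of the 16 listed glucocorticoid-responsive genes in the IM, CM and CMT libraries on a log axis, ordered by the ratio of CM to IM, 1 value per library with no error bar. CM is below IM for every gene except MT1A, which is 2.63-fold higher in CM.

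SDS, which breaks down serine for gluconeogenesis, had the largest gap, with an FPKM of 12000.3 (IM), 424 (CM) and 4697 (CMT). It was 28.3-fold lower in CM than in IM. ZBTB16, a transcription factor, was at 66.2, 12.2 and 76.5 and 5.45-fold lower in CM. FKBP5, given above, was 4.03-fold lower in CM. TSC22D3, a glucocorticoid-induced leucine zipper protein, was at 752, 282 and 630.4 and 2.67-fold lower. ZBTB16, FKBP5 and TSC22D3 had CMT values within 1.5-fold of IM, whereas SDS was still lower in CMT than in IM. MT1A, a metallothionein, went against the group, with 14069 (IM), 37008 (CM) and 4529 (CMT).

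Other markers moved between the same libraries. Red blood cell markers were lower in CM, with HBB at 17158 (IM), 3400 (CM) and 5151 (CMT) and ALAS2 at 77.5, 16.2 and 30.6. The summed FPKM of the 4 listed red cell markers was 17238, 3417 and 5183. Of the 7 listed markers of Kupffer and other immune cells, 1 was lower in CM than in IM: MARCO, a macrophage receptor, at 414, 82.8 and 317. The summed FPKM of those 7 was 4329, 3384 and 3874. All 3 listed cholangiocyte markers, SOX9, EPCAM and CFTR, were higher in CM than in IM, with a sum of 44.4, 76.3 and 49.0. Over all features 11.1% were higher by the same rule. The largest single value made up most of each sum, at 36.6 (IM), 62.6 (CM) and 41.4 (CMT). SOX9 rested on 8, 20 and 8 reads, and the interval of its ratio of CM to IM, 0.774 to 4.82, includes 1. None of the 8 hepatocyte or the 8 stellate cell and fibroblast markers was past 1.5-fold between CM and IM, and of 5 listed endothelial markers 1 was, VWF. Within that threshold, 7 of the 8 hepatocyte markers were below IM in CM, with a median log2 ratio of -0.33. Their summed FPKM was 984341 (IM), 735733 (CM) and 731141 (CMT), most of it ALB, at 690375, 476360 and 445509. Only 2 of the 8 were lower in CMT than in CM. The median log2 ratio was 0.18 for CMT over CM and -0.079 for CMT over IM, so the low sum in CMT does not describe the group. PGRMC1, HSD17B6, HSD11B1 and most of the glucocorticoid-responsive genes were also lower in CM than in IM. The part of these cell type markers in the receptor and enzyme values was not tested.

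The scaling of FPKM between libraries bears on the smaller ratios, since the deposited values are not in proportion to the read totals. The calls above therefore hold for the deposited scale. The deposited values are also far larger than scaling to the fragments mapped would give. An FPKM of 1 here is thus a lower level than the unit implies. Scaling each library by its total of recovered reads adds 0.28 to every log2 ratio of CM to IM and -0.24 to every log2 ratio of CMT to CM. With it, 22.0% of all features were called higher in CM over IM and 6.42% lower, and 6.82% were higher and 22.4% lower in CMT than in CM. ESR1 then passed 1.5-fold in CM over IM and HSD17B6 no longer did, so that no member was called lower in CM. AKR1D1 was then called lower in CMT than in CM. The median of the reductase and dehydrogenase list, -0.28 for CM over IM, is no larger than this shift. The log2 ratio of HSD17B2, at 7.08 and -9.59 as deposited, is many times these shifts.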

How the data were processed

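Liver poly-A RNA was sequenced on an Illumina HiSeq instrument as 100-bp paired-end reads, in 3 pooled libraries. The authors mapped reads to Sscrofa 10.2 with TopHat and deposited an FPKM value for each of 34579 features. The read counter and annotation are not given in the sources used here. Ratios are of deposited FPKM values, without rescaling or pseudocount. Calls needed 1.5-fold and a minimum FPKM of 1 in each of the 3 libraries.

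FPKM values of a gene are whole multiples of a step. The step gave a length and library divisors of 2.51 (IM), 3.42 (CM) and 2.04 (CMT), and with them the reads of 23090 of the 24277 features above 0 (95.1%). Divisors set by the fragments mapped would be far larger, so the deposited values exceed an FPKM in the usual sense. The smallest fitting length, up to 10000 bases, was taken, so a common factor of the reads can be lost and an interval be too wide. Where both mates were counted, it is too narrow. In 2999 features of simulated data the reads were exact for 94.2%. The simulated features copied longer features with recovered reads in every library, so this share does not cover ESR1 or HSD17B6. All 200 features simulated as changed passed 1.5-fold. They were given many reads and a change well above that threshold, so their passing was fixed by the setting. Of the 2800 simulated without a change, 64 were also at least 1.5-fold higher.

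The members and gene lists were chosen with earlier results of these data known. All members were named. From each list were named at most the 4 genes past 1.5-fold in any comparison with the largest ratio of CM to IM in either direction, genes listed at 0 or under an FPKM of 1 throughout, and paralogs or partners of a member or named gene, or carriers of their ligands. MT1A was named after its values were seen. VWF, EPCAM, SOX9 and CFTR are markers. CCDC170, SYNE1, MYCT1, the genes beside HSD17B2 and the intestinal markers were chosen after their values were seen. Gene order came from RefSeq on Sscrofa11.1, used without coordinates. List genes with no row were not analysed here, and some genes of the lists are not reported here. Alternatives were other FPKM minimums, a pseudocount of 1, 2-fold, 4 library scalings and a demand on the interval. Tools were Python 3.11.15, numpy 2.4.6, pandas 2.3.3, scipy 1.17.1 and matplotlib 3.10.9.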

Additional observations from a re-analysis of the deposited data

How the results depend on the processing

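Each group had 1 library, so no library could be left out. No paired analysis was possible because each group had 1 library. With a minimum FPKM of 10 in place of 1, the members past 1.5-fold went from 3 to 1 for CM against IM, from 4 to 2 for CMT against CM and from 2 to 0 for CMT against IM, since HSD17B2 and SRD5A1 have an FPKM under 10 in at least 1 library. With a pseudocount of 1 the last count was 1. A threshold of 2-fold gave 1 in each comparison of CMT, and so did a demand that the counting interval lie on one side of 1, which HSD17B6 could not meet without recovered reads. HSD17B2 was the gene that remained in each of these counts of 1 that involve CMT. Shares over all features were computed for the 4 scalings but not for the other minimums, the pseudocount, 2-fold or the interval demand. A change in those counts thus cannot be told apart from a stricter rule that lowers every count. Under the 4 scalings 3 genes were past 1.5-fold for CM against IM, 5 for CMT against CM, where AKR1D1 was added, and 2 for CMT against IM. Of 120 single-gene ratios recomputed, 79 stayed inside their counting interval and 41 did not, counting HSD17B6, which has no interval, among the latter. In 2 of them the sign differed, both for CMT versus IM: NR3C1 (-0.03 to 0.01, scaled by read totals) and PGRMC1 (0.0028 to -0.03, scaled by the upper quartile). The glucocorticoid alternatives were chosen after seeing the data. There the count lower in CM than in IM was 13, and 10 to 13 elsewhere, and the count higher in CMT than in CM was 8, falling to 5 at 2-fold. The HSD17B sum without HSD17B2, scaled in the same ways after seeing the data, was lowest in CM as deposited and by the median ratio, and lowest in CMT under the other scalings. ESR1 and SRD5A1 had 22 recovered reads or fewer in each library, and for ESR1 these may be a fraction of the true reads.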

Other observations

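The genes beside HSD17B2 in the RefSeq gene order were examined after its values were seen, and 4 of them are given here. SDR42E1, the next gene and also a short-chain dehydrogenase, had an FPKM of 34.8 (IM), 168 (CM) and 27.1 (CMT). CM was 4.82-fold above IM (95% exact interval 3.86 to 6.09). PLCG2, a phospholipase beyond it, was at 15.8, 47.7 and 25.2, and CM was 3.02-fold above IM (2.48 to 3.68). CDH13, a cadherin on the other side, was at 6.73, 11.4 and 9.11, with a ratio of CM to IM of 1.69 (0.773 to 3.97). CMIP, farther off, was within 1.5-fold between CM and IM, at 147 in IM and 119.97 in CM. All 3 genes past 1.5-fold were higher in CM, with smaller ratios than HSD17B2, and the interval of CDH13 includes 1. Over all features 11.1% were higher by the same rule, and so few genes, picked after the fact, cannot be set apart from that share.

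HSD17B2 is also abundant in intestinal epithelium, so markers of that tissue were looked up after the values were seen. FABP2, SI and FABP6 were listed at 0 in all 3 libraries, as IDH1 was, so these zeros need not mean absence. ALPI was at 0 (IM), 0.078 (CM) and 0.158 (CMT). CDX2 was at 0.414 (IM), 1.82 (CM) and 1.02 (CMT), and LGALS4 was at 3.46, 0 and 2.43.

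CCDC170, the neighbour of ESR1, was at 2.40 (IM), 5.03 (CM) and 1.90 (CMT), highest in CM as ESR1 was. Of 12127 mRNA features that reached an FPKM of 10 in every library, 158 had a pair of log2 ratios within a distance of 0.2 of those of ESR1. The nearest 3 were LOC100624650, THOP1 and LOC100627774, at distances of 0.023, 0.030 and 0.033. THOP1, a peptidase, was at 176 (IM), 250.4 (CM) and 138 (CMT). These are likenesses over 3 libraries only, and the ratios of ESR1 rest on 11, 21 and 7 recovered reads. The log2 intervals of ESR1 ran from -0.63 to 1.69 (CM to IM) and from -2.32 to 0.45 (CMT to CM). Both are far wider than the distances given, so counting error alone could change which genes are nearest.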
